A study of Homo sapiens with 9 samples.

Results

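The regions described here are the YY1 binding sites (peaks) that lay in an intron other than the first of the transcript to which they were annotated. They were taken by their annotation alone, without reference to any measured value, and numbered 2031 of 23002 peaks (8.83%). For comparison, 1025 peaks lay in first introns, 2975 in distal intergenic sequence and 15902 at promoters. YY1 was profiled by chromatin immunoprecipitation and sequencing (ChIP-seq) in SK-N-MC, a human tumour line that the labels call neuroblastoma and that is known to carry the EWSR1-FLI1 fusion. The genotype was given as WT, and plasmids were delivered with Lipofectamine 2000, so Htt was overexpressed beside the endogenous protein in every YY1 library. The HttQ23 group received EGFP-tagged residues 1 to 550 of huntingtin (Htt) with 23 glutamines and the HttQ89 group received the same fragment with 89 glutamines. Each group held 3 YY1 libraries, labelled as biological replicates. The 3 input libraries were not analysed here.

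YY1 is a zinc finger protein that binds DNA through a motif with the core ATGGC and can activate or repress transcription. Most of its known sites lie just downstream of transcription start sites (TSS), and it also takes part in contacts between enhancers and promoters. The start of the L1 retrotransposon, a mobile element that copies itself through RNA, holds a YY1 site known to position the start of L1 transcription. Alu elements are short, numerous and frequent in introns, and are derived from 7SL RNA.

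The sequences under the later-intron peaks fell into 3 kinds, described first because the strongest peaks were mainly of 1 kind. Word sets were chosen after the sequences and values had been seen: 8 words of 9 bases from the Alu element and 4 from the start of L1, with a peak placed in a class when at least 2 words of the set lay on the same strand, L1 first. Of the 2031 peaks, 1293 (63.7%, exact 95% interval 61.5 to 65.8) held Alu words, 94 (4.63%, 3.76 to 5.63) held L1 words and 644 (31.7%) held neither. Below, peaks or windows with Alu words or L1 words are those that met this rule. A peak with neither set could still hold a single word. Of the 644, 15 held the Alu word GAATGGCGT and 3 the L1 word AAGATGGCC. No repeat annotation was used. These intervals cover counting error only.

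The longer YY1 motif AAGATGGCG was found in 21 later-intron peaks (1.03%). Of the 8 strongest, 3 came from peaks with neither set of words and 5 from peaks with Alu words. The 3 from peaks that met neither class rule are shown over 30 bases (GRCh38), with the motif in capitals.
ZBTB46 (chr20:63771256-63771285, plus strand): tccagagctgcAAGATGGCGggggggctac
POLR2F (chr22:38038864-38038893, minus strand): gggccgctcgcAAGATGGCGgccgccagtg
ZSCAN5A (chr19:56252933-56252962, plus strand): agaagaaagacAAGATGGCGgcgcagtggc

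The strongest later-intron peaks had neither set of words and were dense in CpG. The central 120 bases of the 3 strongest are shown on the plus strand, with each CG in capitals.
ENSG00000254553 (chr1:32500674-32500793): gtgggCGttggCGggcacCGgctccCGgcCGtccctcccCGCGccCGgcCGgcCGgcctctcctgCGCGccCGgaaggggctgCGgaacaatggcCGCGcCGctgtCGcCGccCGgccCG
PDCD6-AHRR (chr5:373827-373946): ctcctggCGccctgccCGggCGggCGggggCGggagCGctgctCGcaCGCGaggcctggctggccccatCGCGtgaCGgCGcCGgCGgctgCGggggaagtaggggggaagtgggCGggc
ENSG00000248994 (chr5:2038668-2038787): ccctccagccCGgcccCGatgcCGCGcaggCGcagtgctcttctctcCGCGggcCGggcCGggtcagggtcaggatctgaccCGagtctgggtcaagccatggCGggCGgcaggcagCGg

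The later-intron peaks were placed by host gene, intron and distance to a TSS. All 2031 matched a transcript and intron number in GENCODE v44, in 1562 host genes. Hosts were protein coding for 1503 peaks and lncRNA genes for 503. Intron 2 held 654 peaks, intron 3 held 382, intron 4 held 205 and later introns held 790. The median host intron was 40515 bases long and the median distance to the TSS given by the authors' annotation was 22711 bases. These lengths and counts were not compared with those of all introns. The gene of that annotated TSS was the host for 1397 peaks (68.8%), so for the others a peak named by it sat inside a different gene. Of the 2031 peaks, 477 also lay in a first intron of another transcript of their host, and 114 lay within 3000 bases of a TSS of any GENCODE transcript. The distances of the authors' annotation were all at least 3007 bases.

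Alu and L1 words were far more frequent under the peaks than beside them. Windows of the same length taken 2 kb to either side held Alu words in 8.86% and 8.32% of cases, against 63.7% under the peaks. L1 words were in 0 of 2031 windows on the lower-coordinate side, which allows a share of up to 0.148%, and in 1 of 2031 on the other side. The words were partly chosen from the peak sequences themselves, so this contrast is a description. Alu words were in 56.6% of first-intron peaks, 44.7% of distal intergenic peaks and 3.74% of promoter peaks, and L1 words in 3.41%, 3.73% and 0.365%.

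The core ATGGCG, searched on both strands, was more frequent in later-intron peaks than at promoters, and most of its matches were the Alu word. It was in 54.3% of later-intron peaks (exact 95% interval 52.1 to 56.4), 50.7% of first-intron peaks (47.6 to 53.8), 45.1% of distal intergenic peaks, 27.1% of promoter peaks and 32.7% of all peaks. Within later introns it was in 73.2% of the peaks with Alu words, 3.19% of those with L1 words and 23.8% of those with neither. GAATGGCGT, a word of the Alu right arm that contains it, was in 44.3% of later-intron peaks, 37.5% of first-intron peaks, 32.0% of distal intergenic peaks, 1.89% of promoter peaks and 11.2% of all peaks. The longer AAGATGGCG, which also contains it, ran the other way, with 1.03% of later-intron, 0.780% of first-intron and 0.571% of distal intergenic peaks against 4.09% of promoter peaks and 3.07% of all peaks.

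AAGATGGCC, the YY1 core as it occurs in L1, which contains ATGGCC and not ATGGCG, was in 96 later-intron peaks (4.73%), against 3.80% of first-intron peaks, 3.93% of distal intergenic peaks, 1.04% of promoter peaks and 1.88% of all peaks. It is 1 of the 4 L1 words, and 90 of the 96 were in peaks of that class. A match is a description of letters and not of a bound site.

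The L1 word lay near the middle of its peaks. Of its 90 occurrences in peaks with L1 words, 61 (67.8%) were within 50 bases of the peak centre. The class rule asks for a second word inside the same peak, which by itself favours inner positions, so no expected share is given. GAATGGCGT was within 50 bases in 331 of 885 occurrences (37.4%) and ATGGCG of the peaks with neither set of words in 40 of 168 (23.8%). The element ran on the strand opposite to the host gene in 65 of 94 peaks with L1 words (69.1%, exact 95% interval 58.8 to 78.3) and in 701 of 1284 oriented peaks with Alu words (54.6%, 51.8 to 57.3). Intronic copies outside the peaks were not counted, so these shares have no base rate and are not shown to be particular to the peaks.

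**Figure D1:**
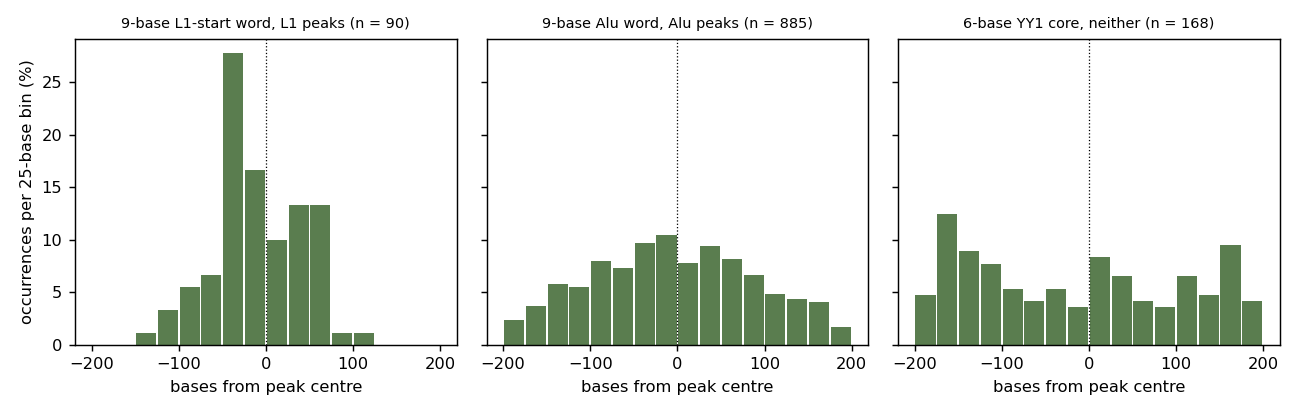
Position of 3 words in later-intron peaks, as distance from the peak centre in bases on the x axis and the percent of occurrences in each 25-base bin on the y axis. The L1-start word (90 occurrences) gathered around the centre, the Alu word (885) less so, and the 6-base core in peaks with neither set of words (168) did not.

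Some other motifs were more frequent in the peaks with neither set of words than in the rest. GGGCGG, the GC box bound by SP family factors, was in 67.4% of them, 41.8% of the peaks with Alu words and 5.32% of those with L1 words, against 84.3% of promoter peaks and 75.7% of all peaks. AGGGGGC, part of the CTCF motif and partly overlapping GC-box sequence, was in 19.6% of the peaks with neither, 2.09% of those with Alu words, 26.3% of promoter peaks and 22.1% of all peaks. TGANTCA, the AP-1 site, was in 5.02% of later-intron peaks and 4.02% of all peaks. It was in 4.66% of the peaks with neither, 5.10% of those with Alu words and 6.38% of those with L1 words. The windows 2 kb to either side held it in 11.6% and 11.8% of cases. A run of 4 or more GGAA repeats, the kind of site bound by EWSR1-FLI1, was in 0 of 2031 later-intron peaks and in 5 of all 23002, so no peak of that kind is described. Both strands were searched for each motif.

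The first comparison of levels asked how strongly later introns were bound relative to the other classes of site. Values are normalised read counts, the reads in a peak scaled by the authors to sequencing depth, and 1 read was worth between 0.876 and 1.06 units. For replicates 1 to 3, the median later-intron peak stood at 8.49, 8.50 and 8.76 in HttQ23 against 4.12, 5.93 and 9.96 in HttQ89. At promoters the HttQ23 medians were 73.2, 58.4 and 65.7 and the HttQ89 medians 26.8, 39.5 and 81.5. Promoter medians lay above later-intron medians in every library.

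On the log2(value + 1) scale the median later-intron peak was lower than the median promoter peak by 2.44 to 2.97 in the 6 libraries, with a mean difference of −2.71 (exact two-sided sign-flip permutation test over 6 libraries, p = 0.0313, the smallest p it allows). Adjusted over the 10 exact tests made here the p was 0.313. Against distal intergenic peaks the difference was −0.35, lower in 5 of 6 libraries and equal in HttQ89 replicate 1 (exact p = 0.0625, adjusted 0.313). Against first-intron peaks it was −0.12, lower in 4 of 6 libraries and equal in the other 2 (exact p = 0.125, adjusted 0.417). With peaks above 0 in all 6 libraries alone, these last differences were −0.48 and −0.25, each in all libraries (unadjusted exact p = 0.0313 for both).

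**Figure D2:**
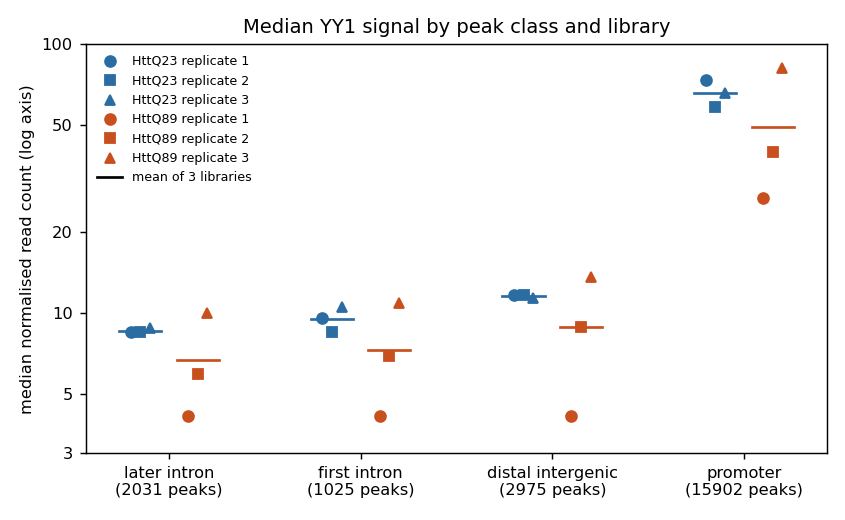
Median normalised read count (log axis) of 4 classes of YY1 peak, with each library as a point and the mean of 3 libraries as a bar. Later introns lay between 4.12 and 9.96 and promoters between 26.8 and 81.5, and in every class HttQ89 replicate 1 was lowest and HttQ89 replicate 3 highest.

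Most later-intron peaks therefore rested on few reads. The median peak held between 4 and 11 recovered reads per library, and 713 of 2031 (35.1%) were above 0 in all 6 libraries, against 63.9% of all peaks. A value of 0 allows up to 3 reads, or 2.63 to 3.19 units depending on the library. Only 218 peaks had a mean of at least 20 and 15 a mean of at least 100. None was among the 500 strongest peaks of the table, where the strongest later-intron peak ranked 549.

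The strongest later-intron peak lay in intron 4 of ENSG00000254553, whose nearest TSS belonged to ZBTB8B, a gene of a BTB zinc finger protein (chr1:32500534-32500934). Its values were 538, 326 and 264 in HttQ23 against 255, 219 and 365 in HttQ89. The groups overlapped. It had a GC content of 80.5% and 66 CpG, and it was 35462 bases from the nearest TSS.

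The next lay in intron 5 of PDCD6-AHRR, a readthrough gene across AHRR, which encodes a repressor of the aryl hydrocarbon receptor (chr5:373687-374087). It held 430, 292 and 245 in HttQ23 and 77.2, 158 and 310 in HttQ89, so that HttQ89 replicates 1 and 2 were below every HttQ23 library and replicate 3 was not. The peak in intron 2 of ENSG00000248994, a gene on the same chromosome (chr5:2038528-2038928), held 372, 246 and 238 in HttQ23 and 95.8, 142 and 413 in HttQ89. There too replicates 1 and 2 were the lowest and replicate 3 the highest.

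FGF18 encodes a growth factor of the skeleton and lung, and its peak in intron 4 (chr5:171450799-171451199) held 248, 230 and 182 in HttQ23 against 141, 137 and 264 in HttQ89. LDB3 encodes a Z-disc protein of muscle, and its peak in intron 8 (chr10:86711228-86711628) held 270, 185 and 188 against 71.0, 88.9 and 256. INSR encodes the insulin receptor, and its peak in intron 2 (chr19:7198037-7198437) held 188, 140 and 146 against 96.8, 106 and 155. In each of the 3, HttQ89 replicates 1 and 2 lay below all HttQ23 libraries while replicate 3 lay among or above them.

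The other members of the 15 strongest had means between 105 and 159. They lay in SPRY4-AS1 and ZMIZ1-AS1, antisense genes of a receptor kinase inhibitor and of a PIAS-like regulator, in ENSG00000249526, in TEX22, in TUBA1C (an alpha tubulin), in ITPKB (an inositol trisphosphate kinase), in GGNBP1, in LMX1A (a homeodomain factor of dopamine neuron development) and in EXD3. Their GC content ran from 62.1% in LMX1A to 80.0% in EXD3. GGNBP1 was the only peak of the 15 with AAGATGGCC, and its values of 80.6, 61.6 and 223 in HttQ23 against 93.7, 47.4 and 160 in HttQ89 were highest in replicate 3 of both groups. EXD3 held 154, 99.8 and 144 in HttQ23 against 0, 84.0 and 148 in HttQ89.

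The top quintile of the later-intron peaks by strength differed in sequence from the rest. By quintile of the mean, from weakest to strongest, Alu words were in 72.0%, 78.6%, 79.6%, 70.2% and 18.0% of peaks. Median GC content was 50.4% to 51.6% in the lower 4 quintiles and 65.8% in the top one (means of 13.6 to 328). The lower 4 quintiles thus showed no fall in Alu words with strength. Of the 100 strongest peaks, 97 had neither set of words and 3 had Alu words. Of the peaks with neither, 223 of 644 (34.6%) reached a GC content of 55% and an observed-to-expected CpG ratio of 0.65, the usual outline of a CpG island, against 71 of 1293 with Alu words and 0 of 94 with L1 words.

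The sequence classes differed in level in 5 of the 6 libraries. Peaks with neither set of words had medians of 14.9, 15.9 and 14.9 in HttQ23 against 2.06, 10.4 and 17.2 in HttQ89. Peaks with Alu words had medians of 7.42, 6.37 and 7.88 in HttQ23 and 5.15, 4.94 and 8.15 in HttQ89. Peaks with neither were above those with Alu words everywhere but in HttQ89 replicate 1, where the order was reversed.

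The level of peaks with L1 words was highest in replicate 3 of both groups. For replicates 1 to 3 their medians were 4.24, 3.19 and 13.1 with HttQ23 against 4.12, 3.95 and 9.05 with HttQ89. The groups overlapped. The peak in TMEM163, a zinc transporter gene, held 21.2, 7.43 and 49.0 against 18.5, 14.8 and 51.6. CDC42SE2, a gene of a CDC42 effector, held 17.0, 10.6 and 37.7 against 20.6, 13.8 and 57.0. Replicate 3 was highest in each group at 3 of the 6 strongest peaks with L1 words, these included, and at 41 of all 94, against 458 of the 2031 later-intron peaks. GPR158, a receptor gene, went the other way, with 25.5, 13.8 and 0.88 against 19.6, 15.8 and 18.1. Since the classes were chosen after seeing the data, they were given no test.

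HttQ89 replicate 1 stood apart in GC-rich peaks. In the top GC quintile (62.6% to 84.3% GC, 405 peaks) it was at 0 in 45.9% of peaks, against 3.21% to 13.8% in the other 5 libraries. In the lowest quintile (29.9% to 47.6%, 429 peaks) it was at 0 in 27.3% against 9.79% to 26.1%. It held at most 3 reads in 41 peaks that had at least 15 units in every other library, of which 40 had neither set of words. Of the 122 peaks with at least 15 units in the other 5 libraries, 117 had neither, so that share was the one of strong peaks in general. The same pattern held for 1 peak in HttQ23 replicate 3 and for 0 in each of the other 4 libraries. Over all peaks this library had the fewest recovered reads, 927910, where the others held 1012558 to 2344649. These are reads inside peaks and not the sequencing depth, to which the values were already scaled. In HttQ89 replicate 1 a read was worth 1.03 units, within the 0.876 to 1.06 of the 6 libraries. HttQ89 replicate 2, with 1012558 recovered reads, was at 0 in 13.8% of the top GC quintile. The part of GC content and of the number of reads in peaks in these zeros was not tested.

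**Figure D3:**
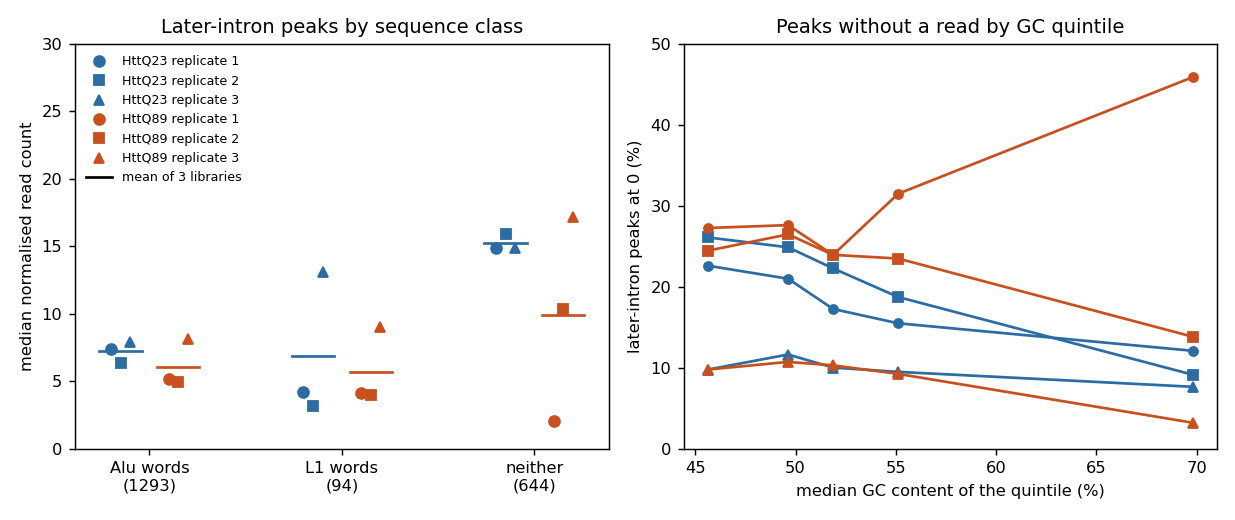
Left, median normalised read count of later-intron peaks with Alu words (1293), L1 words (94) or neither (644), each library a point and the mean of 3 libraries a bar. Right, the percent of later-intron peaks at 0 in 5 quintiles of GC content, 1 line per library. HttQ89 replicate 1 rose to 45.9% in the top quintile, where the other libraries fell to 13.8% or less.

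The main comparison asked whether YY1 signal at later-intron sites depended on the length of the glutamine tract of Htt. No later-intron peak passed the test: 0 of 2031 had an adjusted p under 0.05 in limma with Benjamini-Hochberg adjustment over all 23002 peaks, of which 0% passed. No adjusted p was below 0.871, and edgeR and DESeq2 on recovered reads also called 0. At an unadjusted p under 0.05, 14 later-intron peaks (0.689%) were lower in HttQ89, against 1.5% of all peaks, and 2 (0.0985%) were higher, against 0.0956% of all peaks. The share of lower peaks was below the background and that of higher peaks near it.

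Same-numbered libraries were also treated as pairs in a fit with a replicate block, although their labels name no shared day or batch. With this block the counts at an unadjusted limma p under 0.05 were 62 lower (3.05%) and 11 higher (0.542%). After adjustment 0 peaks passed. Over all peaks the block gave 3.32% and 0.535%, so the later-intron shares were near the background. Without HttQ89 replicate 3 there were 86 lower (4.23%) and 1 higher, against 22.6% and 0.0739% of all peaks. Without HttQ89 replicate 1 there were 9 lower (0.443%) and 4 higher (0.197%), against 0.817% and 0.152% of all peaks. Every HttQ89 library was below every HttQ23 library at 96 later-intron peaks (4.73%), where 4.35% of all peaks did so. Every HttQ89 library was above at 21 (1.03%), where 0.769% of all peaks did so.

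The median log2 fold change of the later-intron peaks was −0.31, against −0.54 over all peaks. It was 0.22 after centring each library on its median and −0.00 after TMM scaling. The median used for centring was taken over the 14698 peaks above 0 in all 6 libraries, of which 713 were later-intron peaks. Leaving out HttQ89 replicate 1 moved the median fold change to −0.04, and leaving out HttQ89 replicate 3 moved it to −0.61. Of the 2031 peaks, 1279 (63.0%) had a negative value, against 78.0% of all peaks, and 40.1% did after centring. The smaller median change did not hold among stronger peaks. With a mean of at least 20 the median fold change was −0.76 for later-intron peaks and −0.60 for all peaks, with 84.9% and 88.2% negative. By quintile of the mean, from weakest to strongest, the median of the later-intron peaks was −0.09, −0.19, −0.18, −0.26 and −0.81. The library medians on the log2(value + 1) scale were 3.25, 3.25 and 3.29 for HttQ23 against 2.36, 2.79 and 3.45 for HttQ89. They averaged 3.26 ± 0.02 and 2.87 ± 0.55 (SD, n = 3 each), and the groups overlapped (exact two-sided permutation p = 0.4, adjusted 0.714, with 0.1 the smallest p that 3 against 3 allows). The difference of −0.39 was within the spread between the HttQ89 libraries.

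The share of all peak signal that fell in later introns was 1.40%, 1.79% and 1.54% for HttQ23 against 1.48%, 1.97% and 1.49% for HttQ89 (exact permutation p = 0.7, adjusted 0.778). Replicate 2 was highest in both groups. The later-intron peaks at 0 made up 17.8%, 20.3% and 9.75% in HttQ23 and 31.3%, 22.5% and 8.67% in HttQ89 (exact permutation p = 0.5, adjusted 0.714). HttQ89 held both the highest and the lowest share. The difference of medians from first-intron peaks changed by 0.03 between the groups and that from promoter peaks by 0.16, both on the log2 scale and both within the spread (exact permutation p = 0.8 and 0.4, adjusted 0.8 and 0.714).

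Later-intron peaks with and without the core ATGGCG did not differ beyond the spread of the libraries. Of the 1102 peaks with the core 946 held Alu words, so this contrast cannot be told apart from that of the sequence classes. The median of the 1102 peaks with the core stood at −0.15, −0.33 and −0.24 relative to the others in HttQ23 and at 0.59, −0.19 and −0.24 in HttQ89, on the log2(value + 1) scale. Only HttQ89 replicate 1 had the core peaks higher. The mean was −0.09 (exact sign-flip p = 0.594, adjusted 0.742), and −0.49 with peaks above 0 in all 6 libraries, lower in all 6 (unadjusted exact p = 0.0313). In peaks with neither set of words alone, a setting chosen after seeing the data, it was −0.18 (unadjusted exact sign-flip p = 0.0625). Over all later-intron peaks the change of the core difference between the groups was 0.29 (exact permutation p = 0.5, adjusted 0.714).

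**Figure D4:**
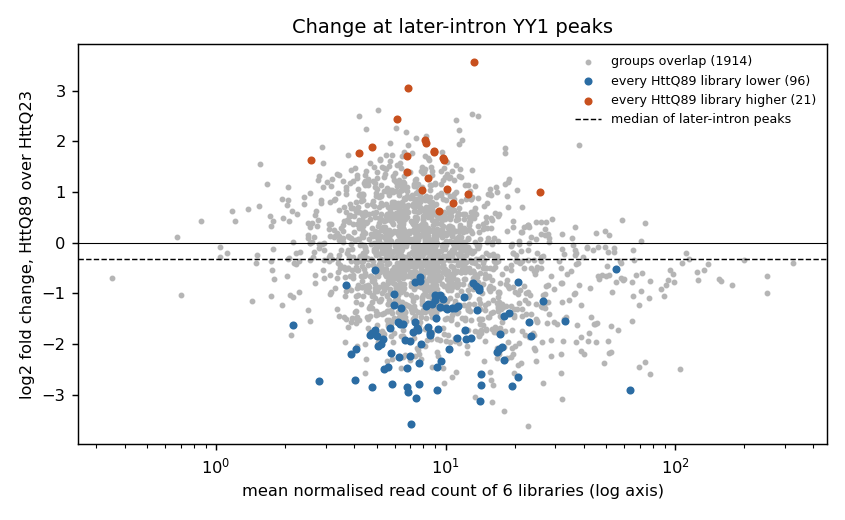
Log2 fold change of HttQ89 over HttQ23 (y axis) against the mean normalised read count of 6 libraries (x axis, log) at the 2031 later-intron peaks. The 96 peaks with every HttQ89 library lower and the 21 with every HttQ89 library higher are coloured, the dashed line is the median of −0.31, and no peak passed the adjusted test.

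Among the 96 lower peaks without overlap, the lowest p belonged to SLC6A3, which encodes the dopamine transporter. The peak in its intron 4 (chr5:1430924-1431324) held 27.6, 4.25 and 10.5 in HttQ23 and 0 in each HttQ89 library. Its HttQ23 mean (14.1 ± 12.1, SD, n = 3) was 4.83 times the HttQ89 floor of 3 reads per library (2.52 times without HttQ23 replicate 1). That ratio allows for the zeros only and not for the spread of the HttQ23 values. The unadjusted limma p of this peak was 0.015 (adjusted 0.871). USP9X, a deubiquitinase gene, was also at 0 in all HttQ89 libraries, with 5.30, 6.37 and 5.25 in HttQ23, a mean of 1.93 times that floor.

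The strongest of the 10 lower peaks lay in intron 7 of ENSG00000248994 (chr5:2111954-2112354), a gene that also hosts the third strongest peak. It held 98.6, 122 and 70.1 in HttQ23 against 0, 33.6 and 57.9 in HttQ89, or 96.9 ± 26.1 and 30.5 ± 29.1 (SD, n = 3 each). The fitted log2 fold change was −2.91 ± 1.16 (SE), with an unadjusted limma p of 0.021, and it was −1.08 without HttQ89 replicate 1. This peak held Alu words.

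PPP2R5C, a regulatory subunit of protein phosphatase 2A, held 26.5, 34.0 and 34.2 in HttQ23 and 0, 3.95 and 18.1 in HttQ89. NAALADL2, a peptidase family gene, held 19.1, 23.4 and 24.5 against 0, 0 and 18.1. SLC4A4, a sodium bicarbonate cotransporter, held 33.9, 29.7 and 10.5 against 0, 2.96 and 8.15. In these 3 peaks HttQ89 replicate 1 was at 0 and replicate 3 highest within its group.

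The other lower peaks lay in VAV2, a guanine nucleotide exchange factor, SPIRE1, an actin nucleator, FUT8, the core fucosyltransferase, and CLEC9A, a lectin of dendritic cells. Their HttQ23 means were 9.24 to 14.3 and their HttQ89 means 0.303 to 1.21. HttQ89 replicate 1 was at 0 in all 10 lower peaks named and in 36 of the 96 peaks that were lower without overlap.

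The highest-ranked of the 10 higher peaks lay in intron 3 of FAM156A on chromosome X (chrX:52935028-52935428), with 2.12, 2.12 and 0 in HttQ23 against 34.0, 17.8 and 23.5 in HttQ89. The groups averaged 1.41 ± 1.22 and 25.1 ± 8.21 (SD, n = 3 each). The fitted log2 fold change was 3.56 ± 1.31 (SE) with an unadjusted limma p of 0.014 and an adjusted p of 0.871. FAM156A has a near-identical neighbour, FAM156B, so its reads are uncertain even among unique alignments. The peak in ENSG00000225258 near SCHLAP1 (chr2:180585071-180585471) held 3.18, 0 and 0 against 10.3, 15.8 and 11.8.

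The remaining higher peaks lay in LINC00534, SERPINI2, ADAMTS19, ITGBL1, RERG, NSD3, KLHL1 and RPH3A, with HttQ23 means of 1.35 to 4.60 and HttQ89 means of 7.07 to 13.4. NSD3 encodes a histone H3 lysine methyltransferase and RPH3A a synaptic vesicle protein. Their unadjusted limma p-values ran from 0.095 to 0.215. Of the 21 peaks higher without overlap 17 held Alu words, as did 54 of the 96 lower ones and 63.7% of all later-intron peaks. By class, 4.18% of the peaks with Alu words were lower and 1.31% higher without overlap, and 5.75% and 0.466% of those with neither.

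The 8 genes with the most later-intron peaks included neuronal genes and others. These counts were not corrected for the length of the gene or its introns. PTPRN2, a phosphatase-like protein of dense-core vesicles, held the most, 9, all with neither set of words. The 5 strongest stood within intron 11 in a stretch from position 157685242 to 157694065 of chromosome 7. The strongest of them held 66.8, 55.2 and 51.7 in HttQ23 and 44.3, 50.4 and 57.0 in HttQ89, overlapping groups.

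Other hosts with many peaks held mainly Alu words. CNTNAP2 and CNTN5, cell adhesion proteins of axons, held 7 and 6, DLG2, a scaffold of the postsynaptic density, 7, NAALADL2 7, MACROD2 6, PHEX 6 and ENSG00000250453 7. The strongest peak of CNTNAP2, with a GC content of 39.2% and neither set of words, held 30.8, 7.43 and 28.9 in HttQ23 against 11.3, 25.7 and 21.7 in HttQ89. The 6 peaks of PHEX, an endopeptidase of bone mineralisation, all held Alu words, and the strongest held 13.8, 41.4 and 30.6 against 16.5, 36.6 and 29.9. At that peak replicate 1 was lowest and replicate 2 highest in both groups, which did not hold for most of the other 5. Peaks of a gene share their locus and are not independent.

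In 8 gene lists no later-intron peak passed the test, at the adjusted p or at an unadjusted p under 0.05. Of 106 axon guidance and neural adhesion genes 28 held 65 peaks, with 37 negative fold changes and a median of −0.04. Of 127 ion channel and synapse genes 33 held 55 peaks, with 35 negative and a median of −0.28. The median of all later-intron peaks was −0.31. After the same centring of each library the 2 lists stood at 0.50 and 0.26, where all later-intron peaks stood at 0.22.

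DAB1, an adaptor of reelin signalling, held the strongest peak of the axon list, with 116, 61.6 and 58.7 in HttQ23 and 21.6, 39.5 and 93.2 in HttQ89. PCDH15, a cadherin of hair cells, had the lowest p of that list, with 36.1, 22.3 and 14.01 against 0, 6.92 and 6.34. The groups did not overlap at PCDH15 and overlapped at DAB1. SHANK1, a postsynaptic scaffold, led the channel and synapse list with 31.8, 82.8 and 34.2 against 36.0, 45.5 and 45.3. KCNN3, a calcium-activated potassium channel, had the lowest p there, with 73.2, 29.7 and 35.0 against 7.21, 0 and 46.2. Both overlapped between the groups.

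Of 134 genes of chromatin regulators and YY1 partners 10 held 15 peaks, 12 of them negative, with a median of −0.69 (−0.15 after centring). SETD1B, an H3K4 methyltransferase, held the strongest, with 80.6, 62.7 and 54.3 in HttQ23 and 17.5, 36.6 and 80.6 in HttQ89. CREBBP, an acetyltransferase that is also on the Huntington's disease list, had the lowest p, with 6.36, 11.7 and 13.1 against 0, 17.8 and 0. The groups overlapped at both.

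Of 64 Huntington's disease and repeat expansion genes 8 held 13 peaks, 6 negative, with a median of 0.09 (0.63 after centring). Of 54 Ewing tumour genes 7 held 13, 8 negative, with a median of −0.25 (0.29 after centring). BCL11B, a zinc finger factor of striatal neurons and T cells, held the strongest peak of both lists, in its intron 2 (chr14:99246152-99246552), with 68.9, 52.0 and 74.4 in HttQ23 and 2.06, 34.6 and 83.3 in HttQ89. HttQ89 held both its lowest and its highest value. ETV1, an ETS factor, held 11.7, 0 and 5.25 against 4.12, 18.8 and 20.8.

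Pathway lists close to the study's question held 1 to 7 later-intron peaks each. The counts of all gene lists were neither set against a share over all genes nor corrected for gene length. Of 47 Hippo genes 5 held 7 peaks, 6 negative, with a median of −0.90 (−0.36 after centring), and the strongest, in MOB1B, a kinase co-activator, held 12.7, 6.37 and 22.8 against 20.6, 0 and 5.43. Of 94 WNT genes 3 held 3 peaks. WNT3A, a WNT ligand, held 3.18, 51.0 and 7.88 in HttQ23 and 0, 64.2 and 41.6 in HttQ89, and WNT3 held 10.6, 37.2 and 21.9 against 0, 42.5 and 20.8. At both ligands replicate 2 was highest and replicate 1 lowest in each group. Of 33 genes of the TAK1, MKK4 and JNK cascade 1, the kinase gene MAPK10, held 1 peak, with L1 words and values of 7.42, 0 and 17.5 against 4.12, 0 and 10.9.

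Chromosome 5 held 274 later-intron peaks (13.5%), or 2.57 per Mb of genic sequence, where the other chromosomes held 0.494 to 1.47. First-intron peaks were also densest there, at 1.11 per Mb of genic sequence against 0.274 to 1.03. Distal intergenic peaks stood at 1.96 per Mb of chromosome against 0.431 to 1.49, whereas for promoter peaks 14 of the other 22 chromosomes were denser. In bins of 10 Mb, later-intron peaks numbered from 2, between 50 and 60 Mb, to 30, between 20 and 30 Mb. The genic length of single bins was not taken into account. The higher density held for Alu words (1.81 per Mb against 0.204 to 0.944) and for peaks with neither (0.676 against 0.157 to 0.670). The median fold change on chromosome 5 was −0.34, and it was −0.31 for the 1757 later-intron peaks elsewhere. The median promoter peak of chromosome 5 had a mean of 69.5, within the range of the other chromosomes (39.7 to 76.1).

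**Figure D5:**
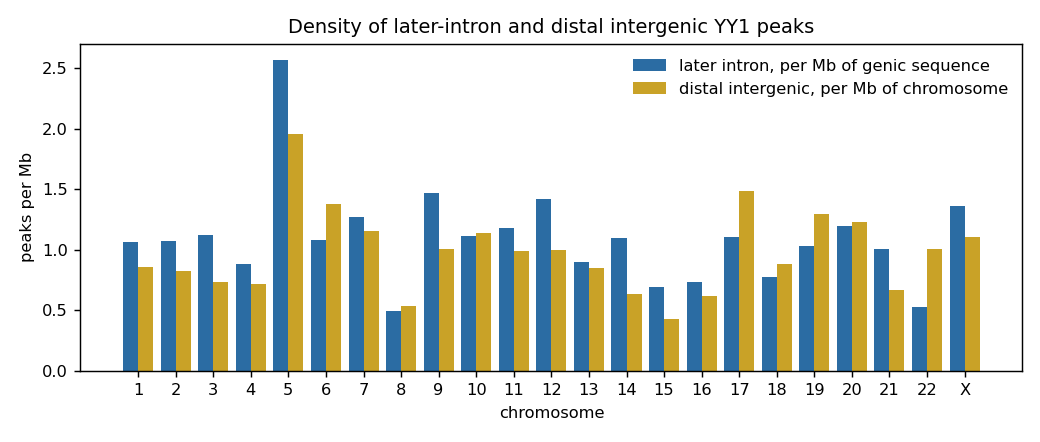
Density of YY1 peaks by chromosome (x axis), in later introns per Mb of genic sequence and in distal intergenic sequence per Mb of chromosome. Chromosome 5 was highest in both, at 2.57 and 1.96 per Mb.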

How the data were processed

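According to the submitters' processing notes, backed by the methods of the study, PE150 reads went through FastQC 0.11.8 and cutadapt 3.7. The authors then ran Bowtie2 2.4.1 against GRCh38.p14, kept unique alignments, removed blacklisted regions with bedtools 2.29.2, called peaks with MACS3 3.0.1 against input and annotated them with ChIPseeker 1.38.0. Keeping unique alignments can lower values in repeats. The deposited values are a signal, reads per peak that the authors normalised to sequencing depth with DiffBind. Of the deposited values 100% came out as whole reads in each library (tolerance 0.1 reads), which gave recovered reads of 927910 to 2344649 per library.

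All peaks, zeros included, were fitted with limma 3.58.1 (R 4.3.3, trend, two-sided) on log2(value + 1), which understates changes of weak peaks. Class values were compared with exact permutation tests over libraries (scipy 1.17.1). Alternatives were edgeR 4.0.16 and DESeq2 1.42.0 fits of the recovered reads, other scalings, pseudocounts, filters and the omission of each library. The fit was also run on simulated counts, in which all libraries had the same size and only peaks averaging at least 20 reads were changed. That simulation does not bear on weaker peaks, and 89.3% of the later-intron peaks had a mean under 20. All p-values reflect only how these libraries varied, which may be technical.

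Same-numbered libraries, which share only the replicate number of their labels, deviated together over all peaks (correlations 0.233, 0.437 and 0.203), so counts from a fit with the number as a block stand beside the main ones. Sequence was read from the hg38 copy. The host transcripts and intron numbers of all 2031 later-intron peaks were found in GENCODE v44. The TSS distances of the authors' annotation could exceed the distance to the nearest GENCODE TSS. Peaks were named by a rule: the 15 strongest, the 10 lower and 10 higher with the lowest p among those without overlap, the 8 genes with most peaks, the strongest and the 2 lowest p of each list, the 8 strongest with AAGATGGCG, and peaks with tandem GGAA. The text gives part of these. Peaks named for L1 words and the count of peaks low in HttQ89 replicate 1 were chosen after their values were seen, as were the classes, the GC quintiles and the chromosome comparison. The members and lists were chosen with earlier results of these data known. Peaks at the HTT locus and some sequences are not reported here.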

Additional observations from a re-analysis of the deposited data

How the results depend on the processing

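No later-intron peak passed the adjusted test under any of 16 alternatives, edgeR and DESeq2 included. Counts at an unadjusted p under 0.05 (14 lower, 2 higher) moved more. They were 13 and 4 with peaks above 0 in all 6 libraries, 5 and 0 with a mean of at least 20, 24 and 3 with a pseudocount of 8, 4 and 9 with median centring, 3 and 7 with quantile normalisation, 8 and 3 with TMM, 6 and 5 with edgeR, 7 and 10 with DESeq2 and 62 and 11 with the replicate block, and leaving out a library gave 4 to 86 lower and 1 to 7 higher. Over all peaks (345 and 22) the same settings gave, in that order, 591 and 30, 444 and 1, 654 and 36, 130 and 162, 190 and 199, 160 and 80, 58 and 59, 75 and 143, 764 and 123, and 45 to 5197 lower and 12 to 160 higher, so the counts moved in the whole table. The median change of −0.39 turned to 0.144 after median centring and 0.0055 with TMM, which remove a shift of whole libraries, stayed at −0.39 in the replicate block (exact p = 0.5), was −0.92 in peaks with neither set of words, an alternative chosen after seeing the data, and ran from −0.69 to −0.14 when a library was left out. The signal share difference (0.07 percentage points) ran from −0.094 to 0.174, turning at −0.022 without HttQ23 replicate 1 and −0.094 without HttQ89 replicate 2. The difference in peaks at 0 (4.86 points) ran from −0.39, without HttQ89 replicate 1, to 10.9. The change against first introns turned to −0.019 with peaks above 0 in all 6 libraries and ran from −0.026 (without HttQ23 replicate 3) to 0.093, with −0.023 without HttQ89 replicate 1. With the same filter the strength differences were −0.25 against first introns, −0.48 against distal intergenic peaks and −0.49 for the core motif. Each then had an exact sign-flip p of 0.0313, the smallest it allows, which was not adjusted. Leaving out a library kept the promoter difference between −2.77 and −2.66, where 5 libraries cannot give a p below 0.0625. The cause of these shifts was not tested beyond what each setting fixes. The median later-intron peak held 4 to 11 reads per library, which limits single sites. With a mean of at least 20, 0 of 218 later-intron peaks were called, as were 0 of all 14576 such peaks. The part of read number in the lack of calls was not tested.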
